A study of Mus musculus with 9 samples.

Results

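Matrix metalloproteinases (MMPs) and tissue inhibitors of metalloproteinases (TIMPs) were followed in bulk RNA-Seq of skin from mice that lost *Supt6* in K14-expressing cells. The 10 genes, *Mmp2*, *Mmp3*, *Mmp8*, *Mmp9*, *Mmp10*, *Mmp12*, *Mmp13*, *Mmp14*, *Timp1* and *Timp3*, were taken by name from a table of 17943 genes, and all 10 were present and had enough counts to be tested. There were 4 *Supt6*-KO mice (K14-CreERT; *Supt6* fl/fl, given tamoxifen) and 5 control mice (*Supt6* fl/fl without the Cre transgene, given corn oil), all harvested on day 10 after the last injection. Both groups therefore carry floxed *Supt6*, and they differ in the transgene and in tamoxifen at the same time, so the effects of gene loss, Cre and tamoxifen cannot be told apart here. The K14 promoter directs the recombinase to keratinocytes, whereas the libraries were made from whole skin. The genotype of the controls and the tissue, dorsal skin, are those of the study's methods. The sample labels instead call the controls wild-type and the tissue ear, and for the other animals they give KO in the titles but knockdown as the genotype. Counts summed to between 29627341 and 30491197 in the controls and between 30597189 and 30967107 in the *Supt6*-KO mice. The library of *Supt6*-KO mouse 4 stood apart from the other 3 over all genes: a chi-square of the counts per gene was 208.7 to 346.8 for its pairs, against 26.7 to 60.9 among the other *Supt6*-KO mice and 17.5 to 103.9 among the controls.

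MMPs are zinc-dependent endopeptidases that are mostly made as inactive precursors and activated by removal of a propeptide. Collagenases cut fibrillar collagens, gelatinases cut denatured collagens and basement membrane collagen, stromelysins cut a wide range of matrix proteins and can activate other MMPs, and membrane-type MMPs act at the cell surface. TIMPs bind the active site of MMPs and block them. In skin, these enzymes are known for matrix turnover, wound repair and the passage of leukocytes, and they are made by fibroblasts, keratinocytes, macrophages and neutrophils in different mixtures. The data here are RNA levels, so neither precursor activation nor enzyme activity was measured.

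*Supt6*, which encodes the transcription elongation factor SPT6, was first checked as the targeted gene. Its counts were 2786, 2068, 2297, 3370 and 3798 in the controls and 684, 503, 478 and 791 in the *Supt6*-KO mice. Each *Supt6*-KO mouse was below each control, with a log2 fold change of -1.57 (SE 0.18, adjusted p = 1.3e-05, edgeR quasi-likelihood test), or -0.75 after a correction for gene length (adjusted p = 0.000189).

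The MMP and TIMP genes moved in opposite directions. Of the 10, 5 were higher in *Supt6*-KO skin (*Mmp8*, *Mmp10*, *Mmp12*, *Mmp13* and *Timp1*), 3 were lower (*Mmp2*, *Mmp14* and *Timp3*), and 2 were not called (*Mmp3* and *Mmp9*). A gene was called when its adjusted p was under 0.05 and its change at least 2-fold. By this rule 20.9% of the 16426 genes tested were higher and 24.9% were lower, and together these make 45.8%. Without *Supt6*-KO mouse 4, 5 of the 10 were again higher and 3 lower. The median log2 fold change was 1.05 over the 10 genes and -0.07 over all genes tested. All 5 higher members had every *Supt6*-KO mouse above every control, a pattern found for 28.9% of all genes, and all 3 lower members had the reverse pattern, found for 31.8%. For each of these 8 genes a two-sided exact permutation test gave p = 0.0159, the smallest value that 4 mice against 5 allow. Levels are given as CPM (counts scaled to the same library total) after TMM scaling, which adjusts each library for its composition. Without this scaling the groups overlap for *Mmp10*: *Supt6*-KO mouse 2 held 10 counts, and controls 2 and 3, with smaller totals, held 11 each. In bulk skin, fewer cells of a type and less RNA per cell cannot be told apart.

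**Figure D1:**
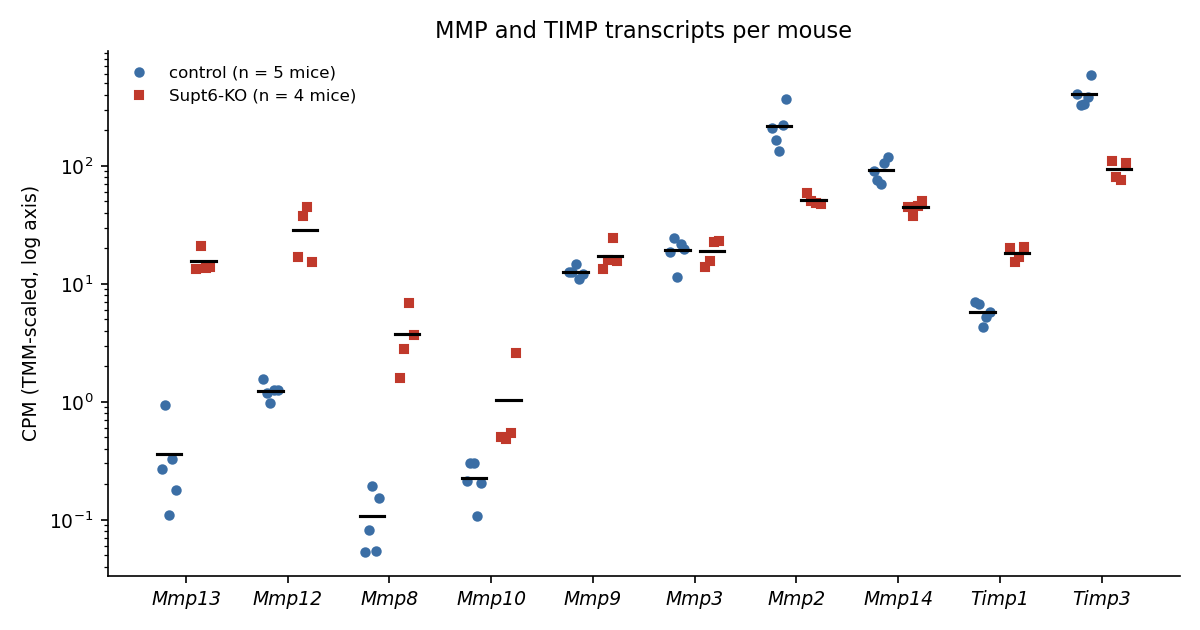
TMM-scaled CPM on a log axis for the 10 MMP and TIMP genes, with each point 1 mouse (blue circles, 5 controls; red squares, 4 *Supt6*-KO) and black bars at group means. *Mmp13*, *Mmp12*, *Mmp8*, *Mmp10* and *Timp1* show red points above all blue ones, *Mmp2*, *Mmp14* and *Timp3* show red points below all blue ones, and the groups overlap for *Mmp9* and *Mmp3*.

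The collagenases *Mmp13* and *Mmp8* had the largest changes among the 10 genes. *Mmp13*, the main interstitial collagenase of mice, lies at chr9:7272514-7283333 (GRCm38). The 5 controls held 10, 34, 4, 12 and 7 counts of it, against 322, 436, 300 and 387 in the *Supt6*-KO mice. In CPM this was 0.267, 0.931, 0.111, 0.325 and 0.178 in the controls against 13.5, 20.9, 13.7 and 13.9. Control 2 was above the other controls, and its level was still far under the lowest *Supt6*-KO mouse. The mean rose from 0.362 ± 0.328 (SD, n = 5) to 15.5 ± 3.62 CPM (SD, n = 4), a ratio of 42.8 and a log2 fold change of 5.41 (SE 0.47, adjusted p = 2.28e-06), which was 6.11 without control 2.

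*Mmp8* (chr9:7558429-7568486), the collagenase stored in neutrophil granules, was close to the limit of detection in control skin. Its counts were 2, 3, 7, 2 and 6 in the controls and 38, 59, 150 and 102 in the *Supt6*-KO mice. *Supt6*-KO mouse 3 had the highest level, 6.86 CPM, and mouse 1 the lowest, 1.59 CPM, a 4.32-fold span within the group. The means were 0.107 ± 0.0631 (SD, n = 5) and 3.74 ± 2.25 CPM (SD, n = 4), and the log2 fold change was 5.07 (SE 0.50, adjusted p = 5.11e-06). With so few control counts, the ratio of means, 34.8, is less certain than that of a more abundant gene.

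*Mmp12* (chr9:7344397-7360461), the metalloelastase best known from macrophages, was the most abundant of the strongly raised MMPs in CPM. Its levels were 1.55, 1.18, 0.969, 1.27 and 1.25 CPM in the controls and 16.9, 37.8, 44.5 and 15.2 CPM in the *Supt6*-KO mice. The controls were close together, whereas *Supt6*-KO mice 2 and 3 were more than 2-fold above mice 1 and 4. The mean rose from 1.24 ± 0.209 (SD, n = 5) to 28.6 ± 14.8 CPM (SD, n = 4), with a log2 fold change of 4.52 (SE 0.34, adjusted p = 1.11e-06).

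The stromelysins *Mmp3* and *Mmp10*, which lie next to these genes, behaved differently from each other. *Mmp10* (chr9:7502342-7510242), a stromelysin of migrating keratinocytes at wound edges, was counted 8, 11, 11, 4 and 8 times in control animals and 12, 10, 12 and 72 times in the *Supt6*-KO mice. The separation in CPM, 0.108 to 0.305 against 0.480 to 2.59, was therefore small outside *Supt6*-KO mouse 4. Its log2 fold change was 2.19 (SE 0.56, adjusted p = 0.00436), and without that mouse it was 1.16 (adjusted p = 0.0153). *Mmp3* (chr9:7445822-7455975), the broadly acting stromelysin-1, was at 18.7, 24.6, 11.3, 21.9 and 19.7 CPM in the controls and 13.8, 15.7, 22.6 and 23.3 CPM in the *Supt6*-KO mice. These groups overlapped almost completely, and the log2 fold change was -0.03 (adjusted p = 0.914), with a 95% interval of -0.53 to 0.48. With library totals in place of TMM, where the median of all genes is -0.76, it was -0.71 (SE 0.26, adjusted p = 0.03).

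**Figure D2:**
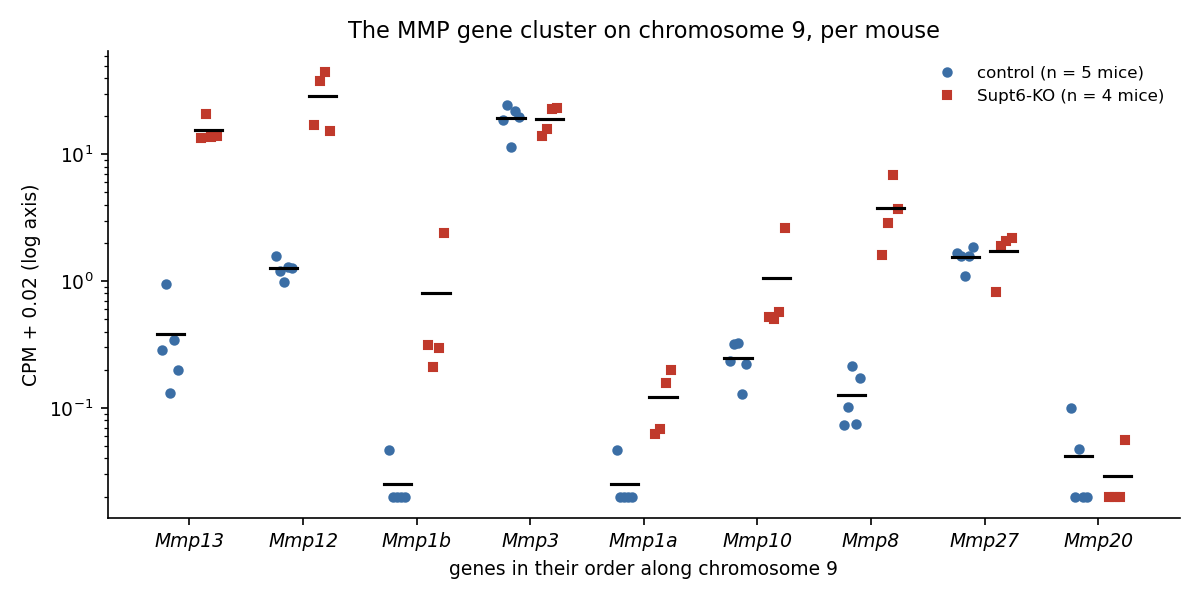
TMM-scaled CPM plus 0.02 on a log axis for the 9 neighbouring MMP genes of chromosome 9, in their genomic order, with each point 1 mouse and black bars at group means, also offset by 0.02. *Mmp13*, *Mmp12*, *Mmp1b*, *Mmp1a*, *Mmp10* and *Mmp8* have higher *Supt6*-KO points, while *Mmp3*, between *Mmp1b* and *Mmp1a*, has overlapping groups at a much higher control level.

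These 5 genes belong to a cluster in which the table holds 9 MMP genes within 402 kb of chromosome 9, from 7272514 to 7674968 in GRCm38. Along the chromosome they are *Mmp13*, *Mmp12*, *Mmp1b*, *Mmp3*, *Mmp1a*, *Mmp10*, *Mmp8*, *Mmp27* and *Mmp20*, and 0 other genes of the table lie between them. *Mmp7*, whose RefSeq start windows lie just beyond *Mmp20*, from 7691840, was not analysed here. Of the 8 that could be tested, 6 were higher and 0 lower, against 20.9% and 24.9% of all genes. *Mmp3* and *Mmp27* were not called, and *Mmp20*, the enamel protease enamelysin, had too few counts to test. *Mmp27* was at 1.53 ± 0.277 CPM (SD, n = 5) in the controls and 1.72 ± 0.628 CPM (SD, n = 4) in the *Supt6*-KO mice. The collagenase genes *Mmp1a* and *Mmp1b* are related copies, and how reads shared between them were divided was not examined, so their values are uncertain. Each had 1 count in control 1 and 0 in the other controls, against 1, 1, 3 and 5 counts of *Mmp1a* and 7, 4, 6 and 66 counts of *Mmp1b* in the *Supt6*-KO mice. The higher genes are thus not in 1 uninterrupted block, since *Mmp3* lies among them.

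The start regions of the cluster genes are shown because several share the AP-1 site, the sequence bound by FOS and JUN dimers that is a textbook element of MMP promoters. RefSeq windows of 300 bases around the transcription start (GRCm38.p6) were found for 8 of the 10 genes, with none for *Mmp2* and *Mmp9*, and *Mmp12* has 2 starts, which gives 9 windows. The letters TGANTCA, searched on both strands (the motif reads the same on each), were present in 4 of these windows and in 7.81% of all 32851 windows. The 4 belong to *Mmp13*, *Mmp3*, *Mmp10* and the downstream start of *Mmp12*, all of the chromosome 9 cluster. The 100 bases before each start are printed below on the plus strand, with the match in capitals and *Mmp8* as the cluster neighbour without one. They lie at chr9:7272414-7272513 for *Mmp13*, chr9:7347274-7347373 for *Mmp12*, chr9:7445722-7445821 for *Mmp3*, chr9:7502242-7502341 for *Mmp10* and chr9:7558329-7558428 for *Mmp8*.
*Mmp13*: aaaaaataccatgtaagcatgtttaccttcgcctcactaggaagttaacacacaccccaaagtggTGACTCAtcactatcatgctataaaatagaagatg
*Mmp12*: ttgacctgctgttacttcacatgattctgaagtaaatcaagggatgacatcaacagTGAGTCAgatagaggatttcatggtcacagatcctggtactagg
*Mmp3*: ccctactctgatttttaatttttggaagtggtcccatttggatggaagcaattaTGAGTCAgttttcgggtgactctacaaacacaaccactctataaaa
*Mmp10*: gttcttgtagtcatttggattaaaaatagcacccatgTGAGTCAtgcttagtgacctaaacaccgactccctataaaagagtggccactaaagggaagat
*Mmp8*: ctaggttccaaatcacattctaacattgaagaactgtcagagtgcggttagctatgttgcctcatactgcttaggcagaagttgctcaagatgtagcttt
Counted with the first transcribed base as 0, the match spans -35 to -29 in *Mmp13*, -44 to -38 in *Mmp12*, -46 to -40 in *Mmp3* and -63 to -57 in *Mmp10*. The middle base of the motif is C in *Mmp13* and G in the other 3. Outside the 10 genes, the windows of *Mmp1a* and *Mmp1b* hold the letters as well, and that of *Mmp20* and 1 of the 2 windows of *Mmp7* do too, while that of *Mmp27* does not. Within the cluster, the higher genes with a match are thus *Mmp13*, *Mmp12*, *Mmp10*, *Mmp1a* and *Mmp1b*, and *Mmp8* is higher without one. *Mmp3*, which was not called, has a match and *Mmp27*, also not called, has none. Whether the match goes with the change was not tested. A loose NF-κB motif, 3 G and 2 C around 5 free bases on either strand, was in 4 of the 9 windows, where 50.8% of all windows have it. The TATA box letters, TATAAA, also searched on both strands, were in 5 of the 9 windows against 13.6% of all windows. In *Mmp3*, *Mmp10*, *Mmp13* and the downstream start of *Mmp12* they are on the strand of the gene, and in *Mmp8* on the opposite strand. Such matches describe letters in the reference genome, not binding.

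The gelatinases *Mmp2* and *Mmp9* also differed. *Mmp2* (chr8:92827290-92853421), the constitutive gelatinase of dermal fibroblasts, fell in *Supt6*-KO skin. It was at 209, 167, 135, 220 and 367 CPM in the controls and at 59.4, 50.8, 48.9 and 47.1 CPM in the *Supt6*-KO mice. The *Supt6*-KO mice were within 1.26-fold of each other, whereas the controls spanned 2.72-fold, with control 5 highest. The mean went from 220 ± 88.9 (SD, n = 5) to 51.6 ± 5.45 CPM (SD, n = 4), or 23.5% of the control mean, with a log2 fold change of -2.09 (SE 0.26, adjusted p = 2.72e-05).

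*Mmp9* (chr2:164940326-164955850), the inducible gelatinase of neutrophils, macrophages and keratinocytes, was at 12.7, 12.5, 14.6, 11.1 and 12.1 CPM in the controls. Levels in the *Supt6*-KO mice were 13.2, 16.0, 24.5 and 15.8 CPM, so mice 2 to 4 were above all controls and mouse 1 was inside their range. The log2 fold change of 0.46 (SE 0.18, adjusted p = 0.0355) was under 2-fold, and the exact permutation test gave p = 0.0317. Without *Supt6*-KO mouse 3 it was 0.25 (adjusted p = 0.15), and with library totals in place of TMM it was -0.25.

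*Mmp14* (chr14:54431598-54442456) encodes the membrane-type enzyme that activates the *Mmp2* precursor at the cell surface. Its levels were 90.4, 75.9, 69.9, 107 and 118 CPM in the controls and 45.0, 37.4, 45.7 and 50.7 CPM in the *Supt6*-KO mice. The groups were apart, and the *Supt6*-KO mean was 48.5% of the control mean (log2 fold change -1.04, SE 0.17, adjusted p = 0.000199). The change is close to the 2-fold limit: it was -0.98 with DESeq2, -0.84 after a correction for gene length and -0.94 without control 5, each with an adjusted p under 0.05 but short of 2-fold.

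The inhibitors *Timp1* and *Timp3* went in opposite directions. *Timp1* (chrX:20870166-20874737), a soluble inhibitor that is induced in inflamed and healing tissue, was at 6.98, 6.76, 4.32, 5.25 and 5.80 CPM in the controls and at 20.1, 15.3, 16.7 and 20.6 CPM in the *Supt6*-KO mice. Its mean was 3.13 times the control mean, with little spread in either group (log2 fold change 1.64, SE 0.17, adjusted p = 7.87e-06). With library totals the log2 fold change was 0.97 and with the length correction 0.72, both positive but under 2-fold. Its transcript of 883 bases is the shortest of the 10.

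*Timp3* (chr10:86300412-86349505), the inhibitor that binds to the matrix and also blocks several ADAM and ADAMTS proteases, was at 404, 326, 333, 387 and 595 CPM in the controls and at 111, 80.6, 75.8 and 107 CPM in the *Supt6*-KO mice. Control 5 stood above the other controls, as it did for *Mmp2*. The *Supt6*-KO mean was 22.8% of the control mean (log2 fold change -2.13, SE 0.21, adjusted p = 5.71e-06).

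**Figure D3:**
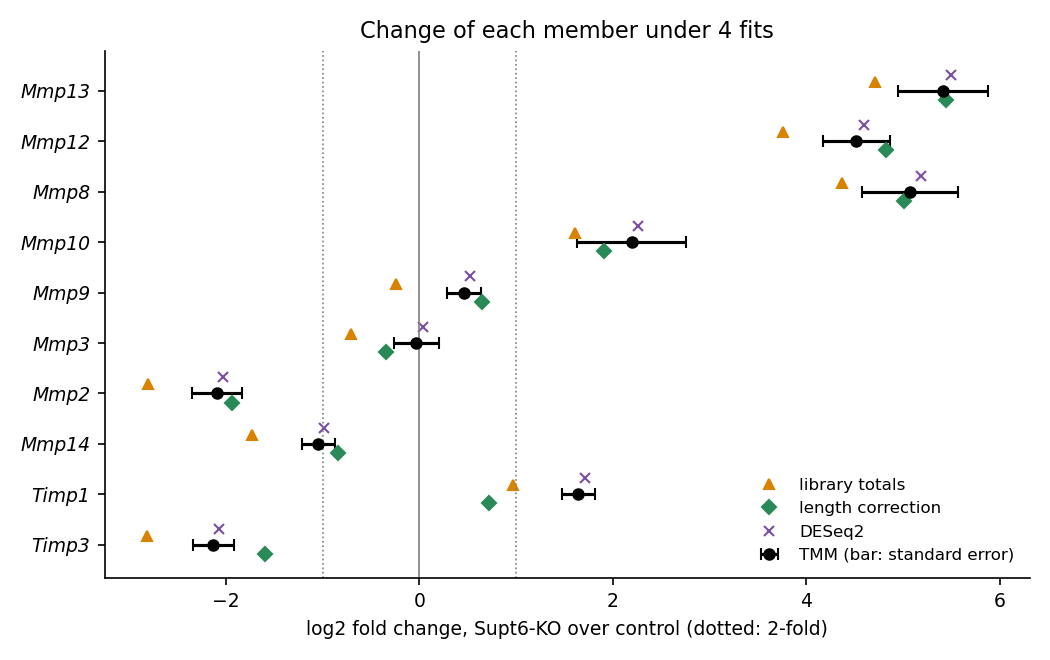
Log2 fold change of *Supt6*-KO over control for each of the 10 genes (x axis; dotted lines mark 2-fold), with TMM scaling as black circles with standard error bars and 3 alternatives as coloured symbols. Library totals (orange) lie below TMM for each gene, which takes *Timp1* to 0.97 and *Mmp9* to -0.25, and the length correction (green) brings *Timp1* to 0.72 and *Mmp14* to -0.84.

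The order of transcript levels changed between the groups. To compare genes, CPM was divided by transcript length in kb. Control skin was led by *Timp3* at 86.6, *Mmp2* at 71.4 and *Mmp14* at 28.5 CPM per kb, and the ranges of *Timp3* and *Mmp2* overlapped although *Timp3* was above *Mmp2* in all 5 mice. *Mmp3* followed at 10.7, *Timp1* at 6.59 and *Mmp9* at 3.97 CPM per kb, with overlapping ranges for *Mmp3* and *Timp1* but not for *Mmp14* and *Mmp3* or *Timp1* and *Mmp9*. The remaining 4 genes were under 0.5 CPM per kb, and the ranges of neighbours among them overlapped. In *Supt6*-KO skin the order began with *Timp1* at 20.6, *Timp3* at 19.8, *Mmp2* at 16.7 and *Mmp14* at 13.8 CPM per kb. After these came *Mmp3* at 10.5, *Mmp12* at 7.93, *Mmp13* at 5.80 and *Mmp9* at 5.48 CPM per kb, and in this run of 8 genes the ranges of all neighbours overlapped. *Mmp8* at 1.54 and *Mmp10* at 0.598 CPM per kb were last, with overlapping ranges, and *Mmp8* lay below *Mmp9* without overlap. The first place of *Timp1* did not hold with the length correction, which put *Timp3* at 24.2, *Mmp2* at 17.8, *Mmp14* at 14.9 and *Timp1* at 14.6 CPM per kb in *Supt6*-KO skin.

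Added together, the 8 MMPs were at 115 ± 35.3 CPM per kb (SD, n = 5) in the controls and 62.4 ± 6.31 CPM per kb (SD, n = 4) in the *Supt6*-KO mice. *Timp1* and *Timp3* together, the 2 TIMPs among the 10 genes, were at 93.2 ± 23.2 and 40.4 ± 6.59 CPM per kb. Both sums were thus lower in each *Supt6*-KO mouse than in any control, the MMP sum spanning 76.9 to 171 CPM per kb in control animals and 55.7 to 70.9 CPM per kb after *Supt6* loss. The ratio of the MMP sum to this sum of 2 TIMPs overlapped between the groups, with 1.02 to 1.37 in control animals against 1.20 to 2.03. The make-up of both sums was apart in the groups. *Mmp2* made up 56.5% to 69.7% of the MMP sum in the controls and 22.4% to 34.7% in the *Supt6*-KO mice. *Mmp8*, *Mmp12* and *Mmp13* together made up 0.278% to 0.735% in the controls and 17.8% to 31.6% in the *Supt6*-KO mice. *Timp1* made up 4.96% to 9.97% of the sum of *Timp1* and *Timp3* in the controls and 49.3% to 54.2% in the *Supt6*-KO mice. When *Timp2* and *Timp4* were added, *Timp1* made up 2.53% to 5.14% of the 4 TIMPs in the controls and 26.4% to 31.1% in the *Supt6*-KO mice. *Timp2* was then the leading inhibitor of *Supt6*-KO skin, with 35.8% to 43.0%. Set against all 4 TIMPs, the sum of the 8 MMPs gave a ratio of 0.585 to 0.711 in the controls and 0.726 to 1.06 in the *Supt6*-KO mice, just apart. With the length correction, added after the data were seen, this ratio overlapped (0.615 to 0.781 against 0.729 to 1.06), and the MMP sums were only just apart (72.9 to 168 against 57.3 to 72.5 CPM per kb). *Timp1* then made up 8.43% to 12.0% of the sum with *Timp3* in the controls and 34.0% to 41.9% in the *Supt6*-KO mice, and 4.81% to 6.24% against 16.0% to 24.4% of the 4 TIMPs. The sums follow from the members already described and carry no test of their own.

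**Figure D4:**
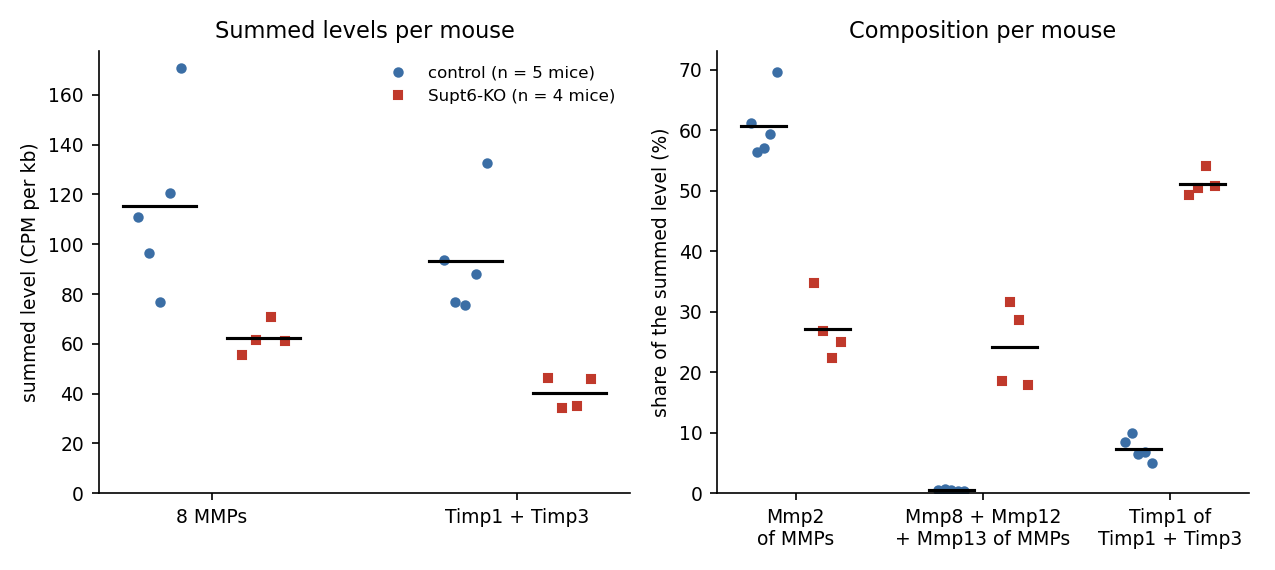
Left, summed level in CPM per kb of the 8 MMPs and of *Timp1* plus *Timp3*; right, share in percent of *Mmp2* and of *Mmp8*, *Mmp12* and *Mmp13* in the MMP sum and of *Timp1* in the sum of *Timp1* and *Timp3* (each point 1 mouse, 5 controls in blue and 4 *Supt6*-KO in red, bars at means). Both sums are lower in each *Supt6*-KO mouse, and *Timp1* goes from 4.96% to 9.97% up to 49.3% to 54.2% of the sum with *Timp3* (34.0% to 41.9% with the length correction).

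Of the 17 other MMP and TIMP genes looked up, 15 were in the table and 14 were tested, and *Mmp7* and *Mmp21* were not analysed here. There were 3 higher (*Mmp1a*, *Mmp1b* and *Mmp11*), 4 lower (*Mmp15*, *Mmp17*, *Mmp28* and *Timp2*) and 7 not called, shares near the 20.9% and 24.9% of all genes that were called higher and lower. *Timp2*, the inhibitor that takes part in *Mmp2* activation by MMP14, fell from 289 ± 98.5 (SD, n = 5) to 102 ± 3.46 CPM (SD, n = 4), with a log2 fold change of -1.50 (SE 0.22, adjusted p = 8.76e-05). The membrane-type enzyme gene *Mmp15* fell from 24.5 ± 3.06 to 3.46 ± 0.713 CPM (log2 fold change -2.82, adjusted p = 4.47e-07). *Mmp28*, which encodes epilysin, an MMP of keratinocytes, fell from 27.0 ± 5.50 to 4.26 ± 2.79 CPM (log2 fold change -2.66, adjusted p = 4.2e-05). *Mmp11*, stromelysin-3, was just over 2-fold higher, at 4.22 ± 1.54 against 2.07 ± 0.599 CPM (adjusted p = 0.00809), and with library totals its log2 fold change was 0.29 (adjusted p = 0.382). Without *Supt6*-KO mouse 3 it was 0.76. *Mmp17* was called lower (log2 fold change -1.12, adjusted p = 0.0048) although its groups overlapped, and with the length correction it was at -0.32 (adjusted p = 0.27). *Timp4*, the most abundant gene not called, went from 30.4 ± 2.62 to 17.6 ± 6.12 CPM, short of 2-fold (log2 fold change -0.79, adjusted p = 0.0046). Among the TIMPs, *Timp1* was therefore the 1 that was called higher.

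Related proteases and the genes that regulate MMPs were counted in the same fit. Of 26 ADAM and ADAMTS proteases, 1 was higher and 13 were lower (median log2 fold change -0.92), where 20.9% and 24.9% of all genes were. The higher one was *Adamts15* (log2 fold change 1.22, adjusted p = 0.00213), which was at 0.48 with library totals (adjusted p = 0.14). *Adamts14*, which processes procollagens, fell by 3.03 on the log2 scale (adjusted p = 1.29e-06), and *Adamts1*, the most abundant and a protease of proteoglycans, fell by 1.85 (adjusted p = 1.08e-05). With the length correction, 4 of the 26 were higher and 5 lower, and the shares of all genes under that correction are not given here.

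Of 17 activators and other regulators of MMPs that were tested, 4 were higher, 6 lower and 7 not called (median log2 fold change -0.09), against 20.9% higher and 24.9% lower among all genes. The counts depended on the processing, with 2 higher under library totals and 3 lower under the length correction. The higher ones were *Plaur*, the urokinase receptor, which focuses plasmin formation on the cell surface (log2 fold change 2.16, adjusted p = 2.09e-06), the serpin gene *Serpinb2*, an inhibitor of plasminogen activators (1.13, adjusted p = 0.000263, or 0.46 with adjusted p = 0.0814 under library totals), *Lcn2* and *Tfpi2*. *Lcn2*, a lipocalin that binds MMP9, had a mean of 4.44 ± 0.986 CPM in the controls (SD, n = 5) and 16.8 ± 3.08 CPM after *Supt6* loss (SD, n = 4). Lower ones were *A2m*, the protease-trapping alpha-2-macroglobulin (-4.00, adjusted p = 5.07e-06), *Reck*, a membrane-bound MMP inhibitor, from 39.4 ± 18.2 to 10.5 ± 1.78 CPM, *Serpine2*, *Furin*, *Thbs1* and *Lrp1*. *Furin*, the convertase that activates membrane-type MMPs, went from 102 ± 14.3 to 46.9 ± 12.7 CPM. DESeq2 called 6 regulators higher and 5 lower. With 1 mouse left out, 4 to 6 regulators were higher and 5 to 6 lower by edgeR.

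Genes of the matrix proteins that these enzymes cut were mostly lower. Among 20 genes of the interstitial matrix, 0 were higher and 12 lower (median log2 fold change -1.79), where 20.9% and 24.9% of all genes were. By edgeR at an unadjusted p under 0.05 and any fold 2 were higher, and DESeq2 called 0 higher. The count of higher genes was 3 with the length correction, 1 with a replicate block and 1 without control 5. *Sparc*, a collagen-binding glycoprotein and the most abundant of the list, fell by 1.93 on the log2 scale (adjusted p = 5.96e-06), and *Fmod*, a regulator of collagen fibrils, fell by 4.13 (adjusted p = 3.34e-07). *Col5a2*, a minor fibrillar collagen, fell by 1.05 (adjusted p = 0.00769) and was not called after the length correction (-0.16). Of 15 basement membrane genes, 14 were lower (24.9% of all genes were) by both edgeR and DESeq2 (median log2 fold change -2.17). *Col17a1*, a collagen of hemidesmosomes, fell by 2.45 (adjusted p = 4.54e-06), *Col4a6* by 5.14 (adjusted p = 8.51e-07) and *Lama3*, a laminin chain, by 1.32 (adjusted p = 1.37e-05). With the length correction 8 of the 15 were lower, and *Lama3* was at -0.08.

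The AP-1 and NF-κB genes, whose products bind the motifs searched above, were counted in the same way. Of 12, 0 were higher, 4 were lower (*Fosb*, *Jund*, *Rela* and *Nfkb2*) and 8 were not called. Among all genes, 20.9% were higher and 24.9% lower. DESeq2 also called 0 higher. *Junb*, at 0.83 on the log2 scale (adjusted p = 0.0039) and short of 2-fold, was the 1 gene of the list with a positive change at an unadjusted p under 0.05 by edgeR. At that threshold 8 of the 12 had a negative change. *Jund*, the most abundant, fell by 1.05 (adjusted p = 0.000305), and *Fosb* fell by 3.22 (adjusted p = 3.57e-05). With library totals 10 of the 12 were lower, where 6802 of the 16426 genes tested were.

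Markers of the cell types known to make these enzymes were read in the same mice. Of 11 neutrophil markers tested, a list that contains *Mmp8* itself, 9 were higher, 1 was lower and 1 was not called. For this and the lists that follow, the shares of all genes called higher and lower were 20.9% and 24.9%. Their summed level was 4.66 to 9.79 CPM in the controls and 57.9, 73.2, 143 and 46.8 CPM in *Supt6*-KO mice 1 to 4, or 6.13 to 12.2 against 42.6 to 101 CPM with library totals. *Supt6*-KO mouse 3, with the highest sum, also had the highest *Mmp8* and *Mmp12*, while mouse 4, with the lowest sum, had more *Mmp8* than mice 1 and 2. Among the *Supt6*-KO mice, mouse 3 also had the highest fibroblast (3686 CPM), endothelial (77.4 CPM), and cartilage and bone (303 CPM) sums. Its keratinocyte and muscle sums were not the highest. *Stfa2l1*, a stefin of neutrophils and the most abundant of the list, and *Cxcr2*, a chemokine receptor, had log2 fold changes of 9.18 (adjusted p = 4.66e-07) and 1.15 (adjusted p = 0.0034, and 0.46 with adjusted p = 0.164 under library totals). Among the granule genes, *Mpo* was at 0.354 CPM in the controls and 0.0104 CPM in the *Supt6*-KO mice, *Elane* was too low to test, and *Ltf* was at 0 in all 5 controls.

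Of 12 macrophage markers, 7 were higher, 1 was lower and 4 were not called. Their sum was 296 to 539 CPM in the controls and 1077, 1061, 1402 and 884 CPM in the *Supt6*-KO mice, again highest in mouse 3. Under library totals these sums were only just apart, at 361 to 709 CPM in the controls and 715 to 990 CPM in the *Supt6*-KO mice. *Lyz2*, the lysozyme of myeloid cells and the most abundant, had a log2 fold change of 2.79 (adjusted p = 1.93e-06) and *Cd14*, the endotoxin co-receptor, one of 4.05 (adjusted p = 3.95e-07). *Csf1r*, the receptor for macrophage growth factor, went the other way (-1.83, adjusted p = 5.05e-05).

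Fibroblast markers showed 0 higher, 3 lower and 9 not called of 12, a share of lower genes near that of all genes, with summed levels of 2510 to 7654 CPM in the controls and 2014 to 3686 CPM in the *Supt6*-KO mice, which overlap. With library totals the sums of this list were apart, at 3061 to 10065 CPM in the controls and 1832 to 2603 CPM in the *Supt6*-KO mice. By edgeR at an unadjusted p under 0.05 and any fold 0 of the 12 were higher and 5 lower, and DESeq2 called 0 higher and 3 lower. *Col1a1* fell by 3.64 on the log2 scale (adjusted p = 5.35e-05) and *Fap* by 1.68 (adjusted p = 8.2e-06), whereas *Col3a1*, the most abundant, was at -0.31 (adjusted p = 0.43), at -1.06 with library totals (adjusted p = 0.0113) and at 0.42 with the length correction. The highest fibroblast sum was that of control 5, at 7654 CPM, which was also highest for *Mmp2*, *Mmp14* and *Timp3*. Among the controls, it was highest too for the macrophage (539 CPM), endothelial (145 CPM), and cartilage and bone (992 CPM) sums. It was not the highest control for the neutrophil, keratinocyte and muscle sums.

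Of 12 keratinocyte markers, 4 were higher, 3 lower and 5 not called, and their summed level was 25932 to 29123 CPM in the controls and 38157 to 45961 CPM in the *Supt6*-KO mice. With library totals the keratinocyte sums overlapped instead, at 31618 to 36078 CPM in the controls and 25709 to 41815 CPM in the *Supt6*-KO mice. *Krt16*, a keratin of stressed epidermis, rose by 7.23 on the log2 scale (adjusted p = 2.98e-06; 6.47 without *Supt6*-KO mouse 4), *Itgb4*, an integrin of the basal layer, fell by 2.69 (adjusted p = 6.66e-06), and *Krt10*, the most abundant, was at 0.19 (adjusted p = 0.555). Endothelial markers had 4 of 8 lower, among them *Pecam1* (-1.08) and *Cdh5* (-2.11), and their sums overlapped with TMM but were apart with library totals, at 83.5 to 191 CPM in the controls and 47.9 to 54.7 CPM in the *Supt6*-KO mice. Cartilage and bone markers had 9 of 11 lower, and skeletal muscle markers 7 of 8. Cartilage genes were clearly present in the control libraries, with *Acan* at 154 ± 83.8 CPM (SD, n = 5) and *Col2a1* at 72.9 ± 37.4 CPM (SD, n = 5), and *Col2a1* fell by 3.86 on the log2 scale. In the same list *Snorc* fell by 1.04 and *Ctsk*, the most abundant and an osteoclast protease, was at 0.37 (adjusted p = 0.135). The labels call the tissue ear and the methods dorsal skin, and which of these the cartilage genes come from was not tested. Of the muscle genes, *Acta1* fell by 2.66, *Myh4* by 4.38 and *Ckm* by 2.04. The neutrophil, macrophage, cartilage and bone, and muscle sums were apart between the groups with TMM and with library totals, whereas the others were apart under 1 of these scalings. The part of any of these markers in the MMP and TIMP changes was not tested.

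**Figure D5:**
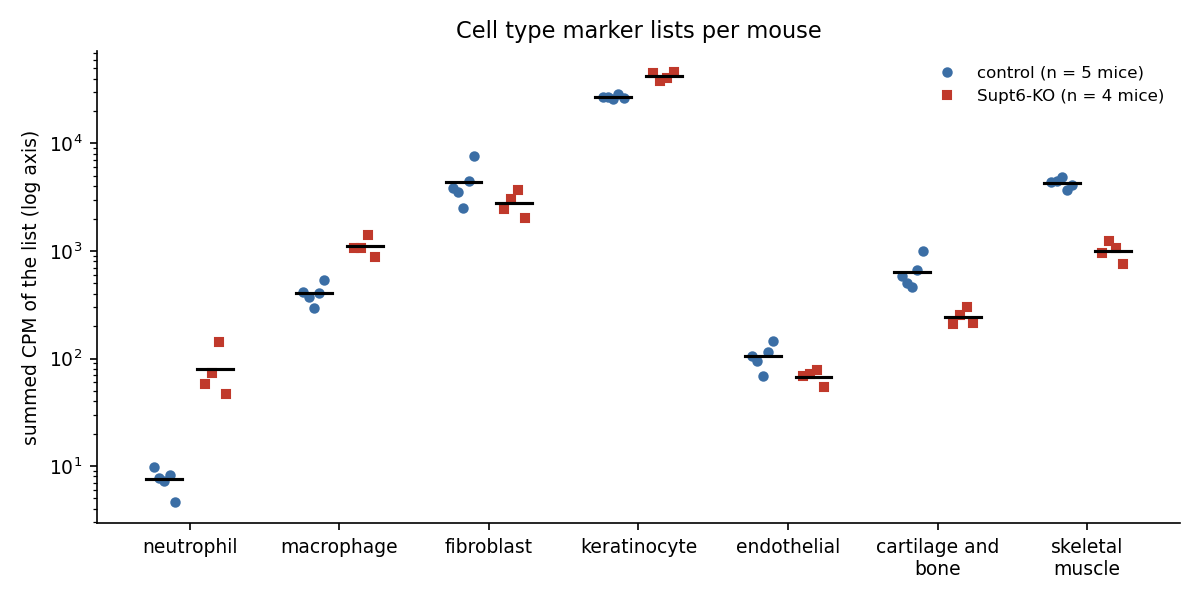
Summed CPM (log axis) of 7 marker lists in each mouse, with 5 controls in blue, 4 *Supt6*-KO in red and bars at means. The neutrophil, macrophage and keratinocyte sums are higher in each *Supt6*-KO mouse (46.8 to 143, 884 to 1402 and 38157 to 45961 CPM), the muscle and cartilage sums are lower, and the fibroblast and endothelial sums overlap. These are TMM-scaled values: with library totals the macrophage sums are only just apart (361 to 709 against 715 to 990 CPM), the keratinocyte sums overlap (31618 to 36078 against 25709 to 41815 CPM) and the fibroblast and endothelial sums are lower in each *Supt6*-KO mouse.

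The genes whose levels followed each member most closely over the 9 mice were sought among 13564 genes with a mean of at least 1 CPM over the 9 mice. Closeness was the root mean square difference of log2(CPM + 0.5) after the mean of each gene was removed, and the 0.5 CPM added to each value shrinks the differences of genes with low levels, so a small distance does not mean an equal fold change. *Mmp8* was closest to *Fpr1*, a formyl peptide receptor of neutrophils (0.22), and then to *Mgarp* and *Egln3*. *Mmp12* was closest to *Cd300lf*, a myeloid receptor (0.263), then to *Catsperz* (0.282) and to *Cd14*, a macrophage marker (0.295). For *Mmp13* the distances were larger, 0.381 for *Fhl2*, 0.396 for *Trem1*, a receptor of neutrophils and monocytes, and 0.398 for *Tdh*. *Mmp2* was within 0.0738 of *Pcdh9*, whose own log2 fold change was -3.50, and within 0.0972 of *Loxl2*, a collagen cross-linking enzyme with -2.09, *Mmp14* within 0.0885 of *Sestd1*, and *Timp3* within 0.109 of *Scara3*. *Timp1* was nearest to *Sox7* (0.142) and *Cd200r1* (0.146). *Mmp10* was nearest to *Arhgef39* (0.108), *Mmp9* to *Nol3* (0.0478) and *Mmp3* to *Rbm15* (0.162). All 9 mice enter each distance, so the difference between the groups is part of it, and the distances are given as a description.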

How the data were processed

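Bulk RNA-Seq of mouse skin (4 *Supt6*-KO, 5 control) was analysed. Per the labels and the study's methods, reads were mapped to mm10 (Bowtie2 2.3.4.3), and the estimated counts of RSEM 1.3.1 were deposited by the authors without normalization. The annotation release is not given in the sources used here. TPM values, deposited by the authors for 6 of these mice, entered no result. Counts were rounded (9% were not whole), and genes with a sum under 10 counts were left out, which kept 16426 genes. Groups were compared with edgeR 4.0.16 (R 4.3.3; quasi-likelihood test, TMM factors, no covariates) and p-values were adjusted by Benjamini-Hochberg over the 16426 genes. The SE is the absolute log2 fold change divided by the square root of F. The labels do not name litters or cages, so the mice were taken as independent. The p-values set the difference between the groups against the spread between these mice.

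Of the gene identifiers, 17917 were matched to RefSeq (GRCm38.p6) and 26 were not. Lengths are those of the longest GENCODE protein-coding transcript. Depth was 29627341 to 30967107 counts per mouse, which limits the precision of genes with few counts.

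The 10 genes, the other lists and the tests were chosen with earlier results of these data known. The text names the 10 genes, *Supt6*, called or abundant members of the MMP and TIMP family, and in each other list the largest and smallest called change with at least 1 CPM and no overlap, plus the most abundant gene. Other genes named were chosen after their values were seen. The result for 1 gene of the lists is not reported here. Alternatives were library totals, DESeq2 1.42.0, no filter, filterByExpr, upper-quartile factors, a replicate block, a length correction (each library's linear trend on log10 length removed) and each mouse left out. The shares of 20.9% and 24.9% are those of the edgeR fit with TMM factors. For DESeq2, filterByExpr, a replicate block and the length correction, the shares of all genes are not given here. The fits were tested on simulated data.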

Additional observations from a re-analysis of the deposited data

Results flagged for a closer look

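Within groups of 4 or 5 mice, 13 values of the named genes stood apart from the rest of their group by Dixon's criterion, among 104 groups looked at, where chance gives about 5.2. *Supt6*-KO mouse 4, whose whole library stood apart from the other 3 (chi-square per gene 208.7 to 346.8), accounted for 6 of them. It was high for *Mmp10* (2.59 CPM, against 0.480 to 0.549 in the others), *Mmp1b* (2.37 CPM), *Mmp17* (1.15 CPM) and *Krt16* (7999.8 CPM, against 1443 to 2519), and low for *Krt10* (7775 CPM, against 18223 to 19847) and *Cdh5* (2.55 CPM).

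The other values were spread over several mice. *Mmp13* was high in control 2 (0.931 CPM) and in *Supt6*-KO mouse 2 (20.9 CPM). *Timp3* was high in control 5 (595 CPM, against 326 to 404). *Mmp1a* and *Mmp1b* each stood apart in control 1 at 0.0267 CPM, which is 1 count. *Mmp15* was low in *Supt6*-KO mouse 2 (2.40 CPM) and *Mmp28* high in mouse 1 (8.40 CPM, against 2.52 to 3.48). What set these mice apart was not tested.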

How the results depend on the processing

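*Mmp2*, *Mmp8*, *Mmp10*, *Mmp12*, *Mmp13*, *Mmp14*, *Timp1* and *Timp3* kept their direction and an adjusted p under 0.05 in all 16 alternatives. The lists moved more with scaling. With library totals, 1470 of all genes were higher and 6802 lower, around a median log2 fold change of -0.76. In that setting 0 ADAM and ADAMTS genes and 2 regulators were higher and 10 AP-1 and NF-κB genes were lower, and the log2 fold changes of *Mmp3*, *Mmp9*, *Krt10*, *Ctsk* and *Col3a1* were -0.71, -0.25, -0.55, -0.37 and -1.06. With the length correction, 4 ADAM and ADAMTS genes were higher and 5 lower, 3 regulators were lower, 3 interstitial matrix genes were higher and 8 basement membrane genes lower, *Serpinb2* (0.93), *Mmp11* (0.90) and *Pecam1* (-0.82) were short of 2-fold, and *Col3a1* was at 0.42, *Krt10* at -0.0069 and *Ctsk* at -0.14. With DESeq2, 2 ADAM and ADAMTS genes were higher, *Mmp3* was at 0.036, and *Col5a2* (-0.99), *Jund* (-0.99), *Snorc* (-0.98) and *Mmp14* (-0.98) were short of 2-fold. With filterByExpr, 1 other MMP or TIMP gene was higher, since *Mmp1a* and *Mmp1b* were not tested. The causes of the other shifts were not tested.

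With 1 mouse left out, the 10 genes gave 5 higher and 2 to 3 lower. The other MMP and TIMP genes gave 1 to 3 higher (1 without *Supt6*-KO mouse 3) and 4 to 5 lower, ADAM and ADAMTS genes 1 to 2 higher, interstitial matrix genes 0 to 1 higher, and all genes 3248 to 3476 higher and 3845 to 4204 lower. *Mmp3* ranged from -0.17 to 0.095, with 0.095, 0.034, 0.075 and 0.021 without *Supt6*-KO mice 1 and 2 and controls 2 and 4. *Mmp14* was short of 2-fold without *Supt6*-KO mouse 2, control 4 or control 5, *Mmp11* without *Supt6*-KO mouse 2 or 3 or control 2, *Jund* without *Supt6*-KO mouse 3 (-0.93), *Cxcr2* without *Supt6*-KO mouse 1 (0.92) or control 5 (0.98), *Pecam1* without control 5 (-0.96), *Col5a2* without control 5 (-0.71) and *Snorc* without *Supt6*-KO mouse 1 (-0.98). Without *Supt6*-KO mouse 4, which stands apart, *Serpinb2* (0.97), *Col5a2* (-0.98) and *Snorc* (-0.90) were short of 2-fold, and *Krt10* was at 0.42 (adjusted p = 0.0495). The same removal, chosen for the marker lists after the data were seen, gave 9 neutrophil markers higher, 5 macrophage markers higher, 4 fibroblast markers lower, 3 keratinocyte markers higher and 4 lower, 1 endothelial marker higher and 4 lower, 8 cartilage and bone markers lower and 7 muscle markers lower.

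Replicate numbers did not pair the mice: deviations of same-numbered mice correlated by -0.0202 to 0.16. With a replicate block, 5 of the 10 genes were higher and 2 lower (*Mmp14* at -0.93), 1 interstitial matrix gene was higher, and *Col5a2* (-0.70), *Cxcr2* (0.95) and *Pecam1* (-0.93) were short of 2-fold. With upper-quartile factors *Mmp11* was short of it (0.94). Genes under about 10 counts per library, such as *Mmp8* and *Mmp10* in the controls, are limited by counting error.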
